A study of Mus musculus with 4 samples.

Results

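Connecting tubule nuclei numbered 466 of the 27343 nuclei kept from mouse kidney slices enriched for medulla. They were chosen by their counts of unique molecular identifiers (UMIs, each standing for 1 captured RNA molecule). Of the 10000 deepest barcodes of each library, those with more than 500 and fewer than 4000 genes and under 5% mitochondrial UMIs were kept. A connecting tubule nucleus had at least 3 UMIs of Slc8a1, at least 1 UMI of Scnn1b plus Scnn1g, at least 2 UMIs of Calb1 plus S100g plus Egfem1, at most 2 UMIs of Slc12a3 and at most 1 UMI of Aqp3. The levels of these 8 genes therefore describe how the nuclei were chosen, and none of them was tested.

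The study asked what the transcription factor Tfap2a controls in the collecting duct. Kidneys came from 12-week-old male mice with 1 library per mouse, from 2 Hoxb7Cre+;Tfap2a fl/fl mice (KO) and 2 Cre-negative Tfap2a fl/fl littermates (control), so that all 4 mice carried floxed Tfap2a alleles. Hoxb7Cre recombines in collecting ducts and in epithelia of the lower urinary tract, and how far it acted in the connecting tubule was not measured. Most connecting tubules lie in the cortex. A middle slice of kidney was taken and its cortex trimmed to favour medullary cells, before nuclei were isolated.

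The connecting tubule joins the distal convoluted tubule to the collecting duct. Its cells reclaim calcium through the apical channel Trpv5, carry it across the cell on the calcium-binding proteins Calb1 (calbindin) and S100g, and extrude it through the sodium-calcium exchanger Slc8a1 and plasma membrane calcium pumps. They also take up sodium through the epithelial sodium channel, whose beta and gamma subunits are Scnn1b and Scnn1g, under the control of aldosterone. Vitamin D, parathyroid hormone and klotho raise calcium uptake in this segment.

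The control mice gave 115 and 68 connecting tubule nuclei and the KO mice 180 and 103. Their median depth was 2472 to 2766 UMIs per nucleus, their median number of genes 1421 to 1535.5, and the nuclei of each mouse summed to between 207151 and 489471 UMIs. The median share of mitochondrial UMIs was 1.59% and 0.57% in control mice and 1.01% and 0.379% in the KO mice, so that the genotypes overlapped in it and mouse 1 of each was the higher. Pairs of libraries shared 7 to 18 barcodes among all nuclei kept and 0 among connecting tubule nuclei. A doublet caller marked 39 of the 466 nuclei, which were kept in the tests, and free RNA was estimated at 9.18% to 25.6% of their UMIs.

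Of the 6 markers Slc8a1, Calb1, S100g, Egfem1, Klk1 and Trpv5, 100 nuclei held UMIs of all 6, 217 of 5, 98 of 4, 33 of 3 and 18 of 2. Slc8a1 alone made up a median of 4.52% to 5.84% of a nucleus's UMIs in the 4 mice. Klk1 (tissue kallikrein) and Trpv5 had no part in the choice of nuclei. Klk1 was detected in 60.3% of connecting tubule nuclei and Trpv5 in 40.3%, against 9.55% and 0.118% of 15207 proximal tubule nuclei, which should lack both and were deeper, with medians of 2895 to 3700.5 UMIs. The marker lists of endothelium, interstitium and immune cells each summed to at most 176 CPM (UMI counts scaled to a common total per mouse and class) in any mouse, with Egfl7, Pdgfrb and Dock2 at 0 in all 4 mice. The lists of the thick ascending limb, at 658 to 2163 CPM, and of the proximal tubule, at 323 to 1914 CPM, stood higher. At least 5 UMIs of thick ascending limb, proximal tubule or intercalated cell genes were found in 57 of the 466 nuclei (mixed nuclei), which were kept in the tests.

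At the edges of the rule, 13 nuclei held exactly 3 UMIs of Slc8a1 and 17 nuclei were 1 UMI short of it, and 88 nuclei held exactly 1 UMI of Scnn1b plus Scnn1g while 36 held none. For Calb1 plus S100g plus Egfem1, 9 nuclei stood at 2 UMIs and 9 at 1 UMI. Aqp3 was at its limit of 1 UMI in 80 members, and 32 nuclei were left out with 1 UMI more. Slc12a3, the sodium chloride cotransporter of the distal convoluted tubule, was at its limit of 2 UMIs in 4 members, and it was the only bar to a further 203 nuclei. Nuclei that met every other criterion were thus more often turned away for Slc12a3 than for Aqp3, which barred 90.

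**Figure D1:**
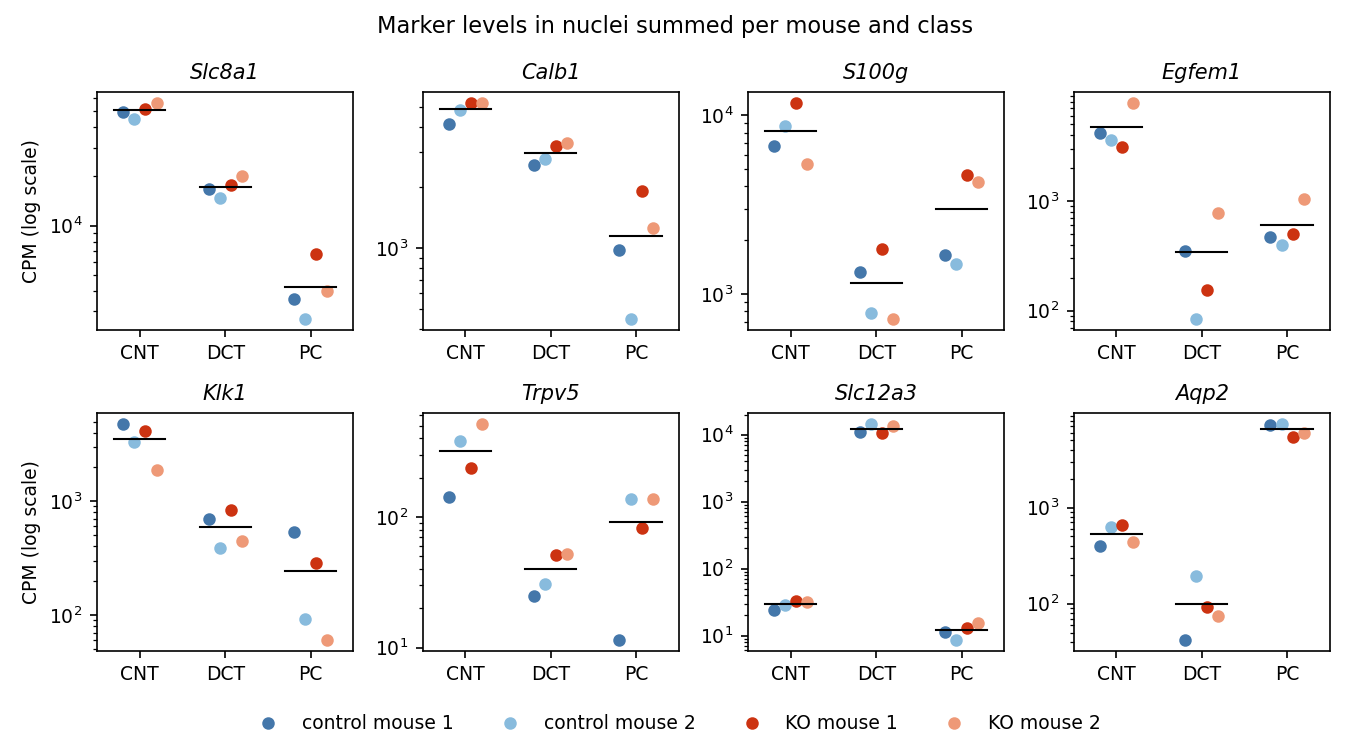
Levels in scaled UMI counts (CPM, log scale) of the 6 connecting tubule markers, of Slc12a3 and of Aqp2 in connecting tubule (CNT), distal convoluted (DCT) and principal (PC) nuclei summed per mouse; each point is 1 mouse and the line is the mean of the 4. Klk1 and Trpv5, which did not choose the nuclei, were higher in connecting tubule nuclei than in both other classes in every mouse, and Aqp2 lay between the levels of the other classes.

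Connecting tubule nuclei made up 1.49% and 1.25% of all nuclei kept in the control mice (exact binomial 95% intervals 1.23% to 1.78% and 0.974% to 1.58%, for counting error only). In the KO mice they made up 2.25% and 1.67% (1.94% to 2.60% and 1.36% to 2.02%). Both KO mice lay above both control mice, with a difference of 0.59 percentage points between means of 1.37% ± 0.165 and 1.96% ± 0.412 (SD, n = 2), and the exact permutation test gave p = 0.33 (two-sided), the smallest value that 2 mice against 2 can give. For every 100 distal convoluted nuclei there were 36.5 and 37.0 connecting tubule nuclei in control mice and 47.6 and 35.6 in the KO mice, so that by this measure the genotypes overlapped. Of the nuclei outside the proximal tubule they made up 2.80% and 1.95% in the controls against 5.38% and 3.55%, with both KO mice again above both control mice. With mitochondrial UMIs under 1% the shares of all nuclei overlapped, at 2.20% and 1.45% against 2.31% and 1.78%, and the difference fell to 0.219 percentage points (exact permutation p = 0.667). The part that trimming of the cortex had in these shares was not tested.

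To see what sets the connecting tubule apart, its nuclei were compared with those of the 2 adjoining segments, summed per mouse and class. Distal convoluted nuclei (1166 nuclei) had at least 3 UMIs of Slc12a3 and at most 1 of Aqp3, and principal nuclei (405 nuclei) had at least 2 UMIs of Aqp3, at least 1 of Scnn1b plus Scnn1g and at most 2 of Slc12a3. Of 13885 genes tested, 121 (0.871%) were higher in connecting tubule nuclei than in both neighbours and 53 (0.382%) were lower than in both, at an adjusted p under 0.05 in each contrast by the edgeR quasi-likelihood fit (Benjamini-Hochberg adjusted) and with the mouse as a term. Of these, 102 and 45 went the same way in all 4 mice. The distance to the distal convoluted nuclei was the smaller by this count, with 596 genes higher (4.29%) and 641 lower (4.62%), against 1334 higher (9.61%) and 1700 lower (12.2%) than principal nuclei. Per nucleus the principal nuclei were the deeper, with medians of 3148 to 3418 UMIs against 2164 to 2387. The sums that entered the fit were the smaller for principal nuclei, with 1502470 UMIs over the 4 mice against 3038248. The part of depth and of these totals in the counts of genes was not tested. DESeq2 called 53 higher and 21 lower genes in both contrasts.

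Klk1, which encodes the kallikrein that the connecting tubule secretes into urine, stood at 4783 and 3307 CPM in control mice and at 4100 and 1889 CPM in the KO mice. Distal convoluted nuclei held 598 ± 213 CPM and principal nuclei 244 ± 220 CPM (SD, n = 4). All 4 mice were above both neighbours, with log2 fold changes of 2.54 (SE 0.19) and 4.16 (SE 0.21). Klk1 belongs to a family of near-identical copies that lie side by side, so its reads may be divided among them.

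Trpv5, the gatekeeper channel of calcium uptake, stood at 142 and 381 CPM in control mice and at 239 and 517 CPM in the KO mice. It was 2.87 (SE 0.20) higher on the log2 scale than in distal convoluted nuclei and 1.85 (SE 0.20) higher than in principal nuclei, again above both in each mouse. Control mouse 1 was the lowest and KO mouse 2 the highest, and the genotypes overlapped. Over the 12 sums of 4 mice and 3 classes, the genes whose log2(CPM + 10) ran most like that of Trpv5 were Pdxdc1 (Pearson r = 0.91), Myof (0.90), Pacsin1 (0.89), Rab40c (0.88) and Gm17354 (0.87), a description in which sums of 1 mouse share a library.

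Beyond calcium, the genes with the largest distance from both neighbours included Spock1, Prlr, Hao1, Cdh22, A4galt, Sh3rf3, Abr, Kel and Gm33051. Spock1, a secreted proteoglycan, had 21.2 and 106 CPM in control mice and 47.0 and 63.7 CPM in the KO mice, with 70 UMIs in all against 3 in distal convoluted and 6 in principal nuclei (log2 fold changes of 5.44, SE 0.53, and 3.95, SE 0.51). Prlr, the prolactin receptor, had 24.2, 38.6, 34.7 and 49.5 CPM in control mice 1 and 2 and KO mice 1 and 2, and was 3.66 and 3.40 higher than in the neighbours on the log2 scale. A4galt, a glycosyltransferase that makes globo-series glycolipids, had 173, 352, 255 and 212 CPM in the same order and was 2.73 and 2.11 higher. All 4 mice were above both neighbours for each of these genes, although Kel (the Kell blood group endopeptidase) rested on 13 UMIs against 2 and 0.

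Clu (clusterin, a chaperone found in urine) was higher than in both neighbours by 2.19 and 1.96 on the log2 scale and stood at 630, 1096, 1397 and 662 CPM. Slit3, a guidance ligand, was also among the 121 genes, with log2 fold changes of 3.34 and 3.89. Its 27 UMIs came from 3 nuclei of the control mice, 16 of them from a single nucleus, and the KO mice had 0, so that the call rests on those nuclei.

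The genes lower than in both neighbours were led by Fkbpl and Satb1, with 0 UMIs in connecting tubule nuclei against 20 and 26 in distal convoluted and 23 and 10 in principal nuclei. Among those with more UMIs, Dnm3, a dynamin, had 36.4 and 96.5 CPM in control mice and 32.7 and 74.3 CPM in the KO mice, against 226 ± 10.4 CPM and 418 ± 165 CPM (SD, n = 4) in the neighbours. Dcdc2a, a doublecortin-domain protein of the cilium, had 2 UMIs against 134 and 64. The adhesion genes Cdh3 (P-cadherin; log2 fold changes of -2.29 and -2.12) and Cadm1 (-1.92 and -1.48) were lower than in both neighbours as well, and each was below both in all 4 mice.

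**Figure D2:**
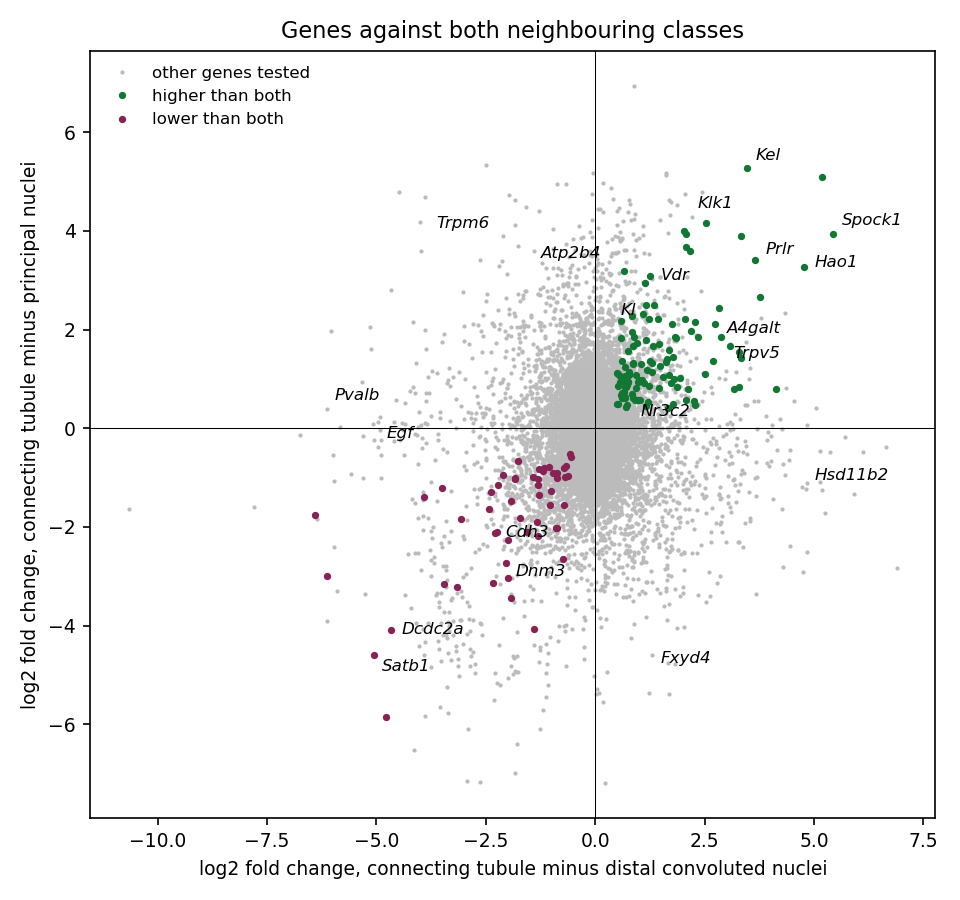
Log2 fold changes of 13885 genes between connecting tubule nuclei and distal convoluted nuclei (horizontal axis) and principal nuclei (vertical axis), each point being 1 gene. Green points are the 121 genes higher than in both, purple points the 53 lower than in both; Trpm6 and Pvalb lie to the left as distal convoluted genes and Hsd11b2 and Fxyd4 below as principal genes.

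AP-2 factors, the family of Tfap2a, bind the palindrome GCCNNNGGC, which reads alike on both strands. In the 250 bases before the transcription start (RefSeq, GRCm38.p6), it stood in 29.0% of genes higher than in both neighbours (27 of the 93 of 121 that matched), in 23.7% of the lower genes (9 of 38), in 23.1% of the 10311 tested genes that matched and in 15.4% of all 27025 genes of the table. A gene counted if any of its windows matched, and genes differ in their number of windows. Counted by window, the shares were 22.7% of 154 for the higher genes, 17.3% of 52 for the lower genes and 19.7% of 13216 for the tested genes. Upstream windows of 3 of the leading genes that hold it are printed 5′ to 3′ on the strand of the gene, with the match in capitals; Klk1, Trpv5, Slc8a1, S100g and Vdr had no match in their windows. The first is Spock1 at chr13:57908333-57908582 (minus strand), then A4galt at chr15:83251730-83251979 (minus strand) and Sh3rf3 at chr10:58813109-58813358 (plus strand).
Spock1: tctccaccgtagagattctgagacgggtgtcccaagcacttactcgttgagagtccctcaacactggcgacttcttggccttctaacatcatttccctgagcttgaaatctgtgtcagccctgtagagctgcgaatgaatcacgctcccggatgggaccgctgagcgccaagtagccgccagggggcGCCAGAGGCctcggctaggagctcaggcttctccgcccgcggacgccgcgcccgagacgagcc
A4galt: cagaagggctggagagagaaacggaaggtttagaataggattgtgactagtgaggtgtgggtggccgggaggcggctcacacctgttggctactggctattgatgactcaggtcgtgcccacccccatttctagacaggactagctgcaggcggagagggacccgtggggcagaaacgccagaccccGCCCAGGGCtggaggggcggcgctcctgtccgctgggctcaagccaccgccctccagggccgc
Sh3rf3: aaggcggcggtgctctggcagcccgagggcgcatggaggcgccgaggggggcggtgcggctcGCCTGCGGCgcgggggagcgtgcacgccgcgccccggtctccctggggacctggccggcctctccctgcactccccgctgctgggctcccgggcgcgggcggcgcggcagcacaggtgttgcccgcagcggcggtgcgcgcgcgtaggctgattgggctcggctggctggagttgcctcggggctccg
A match describes these letters and does not show binding.

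Genes of calcium handling made up part of this difference. Of 11 genes tested, 6 were higher than in both neighbours, namely Trpv5, Klk1, Vdr, Kl, Atp2b2 and Atp2b4, and none was lower than in both. Vdr, the vitamin D receptor, had 921, 970, 1091 and 1030 CPM in control mice 1 and 2 and KO mice 1 and 2 and was 1.25 (SE 0.17) and 3.09 (SE 0.20) higher than in distal convoluted and principal nuclei on the log2 scale. Kl (klotho, the co-receptor of FGF23) had 2823, 3640, 3079 and 2703 CPM and was 1.24 and 2.21 higher. Of the plasma membrane calcium pumps, Atp2b2 (1.73 and 0.92) and Atp2b4 (0.66 and 3.19) were higher than both, although in KO mouse 1 Atp2b2 had 202 CPM against 236 CPM in principal nuclei. Atp2b1 was not, with log2 fold changes of -0.45 (adjusted p = 0.092) and 0.49 (adjusted p = 0.0648) from the edgeR quasi-likelihood fit. Pth1r, the parathyroid hormone receptor, was higher than in principal nuclei only (1.92), with -0.08 (SE 0.16) against distal convoluted nuclei. Trpv6, the sister channel of Trpv5, had a mean of 5.46 CPM and passed neither test. The median log2 fold change over the 11 genes was 0.66 and 1.85, against -0.03 and 0.02 over all genes tested. The rule had chosen the nuclei by other genes of this list, namely Slc8a1, Calb1, S100g and Egfem1. The list was also made with earlier results of these data known, so that both favoured such an outcome.

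Magnesium genes such as Trpm6 lay between the levels of the 2 neighbours in connecting tubule nuclei. The classes were themselves split on Slc12a3 and Aqp3. How far these gates set the order of genes that run with Slc12a3 or Aqp3 was not tested. Against distal convoluted nuclei 6 of 9 genes were lower and 1 higher, and against principal nuclei 4 were higher and none lower. Trpm6, the apical magnesium channel, had 512, 333, 539 and 725 CPM and was -2.11 (SE 0.18) against distal convoluted nuclei and 3.89 (SE 0.24) against principal nuclei. Cnnm2, a basolateral magnesium transporter, followed with -1.60 and 2.10. Egf, the hormone that stimulates Trpm6, and Pvalb (parvalbumin) were far lower than in distal convoluted nuclei, at -4.96 and -6.14, and did not pass against principal nuclei. Among the genes around the sodium chloride cotransporter, 4 of 6 were lower than in distal convoluted nuclei and 4 of 6 higher than in principal nuclei, among them the kinase Wnk1 (-0.54 and 3.31) and the ubiquitin ligase adaptor Klhl3 (-1.31 and 2.71).

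Sodium genes also divided by neighbour. Nr3c2, the mineralocorticoid receptor, was higher than in both, with 1693, 2008, 1357 and 2077 CPM and log2 fold changes of 0.85 (SE 0.15) and 0.62 (SE 0.16). Hsd11b2, the enzyme that shields this receptor from glucocorticoids, was 4.83 (SE 0.21) higher than in distal convoluted nuclei and -1.22 (SE 0.17) against principal nuclei. Sgk1, the aldosterone-induced kinase, was 2.77 higher than in distal convoluted nuclei and -0.27 (SE 0.18, adjusted p = 0.316 from the edgeR quasi-likelihood fit) against principal nuclei. Scnn1a, the alpha subunit of the channel and the only subunit that the rule did not use, had 318, 396, 339 and 364 CPM and passed neither test. In all, 5 of 16 genes of this list were higher and 3 lower than in distal convoluted nuclei, and 4 higher and 4 lower than in principal nuclei.

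**Figure D3:**
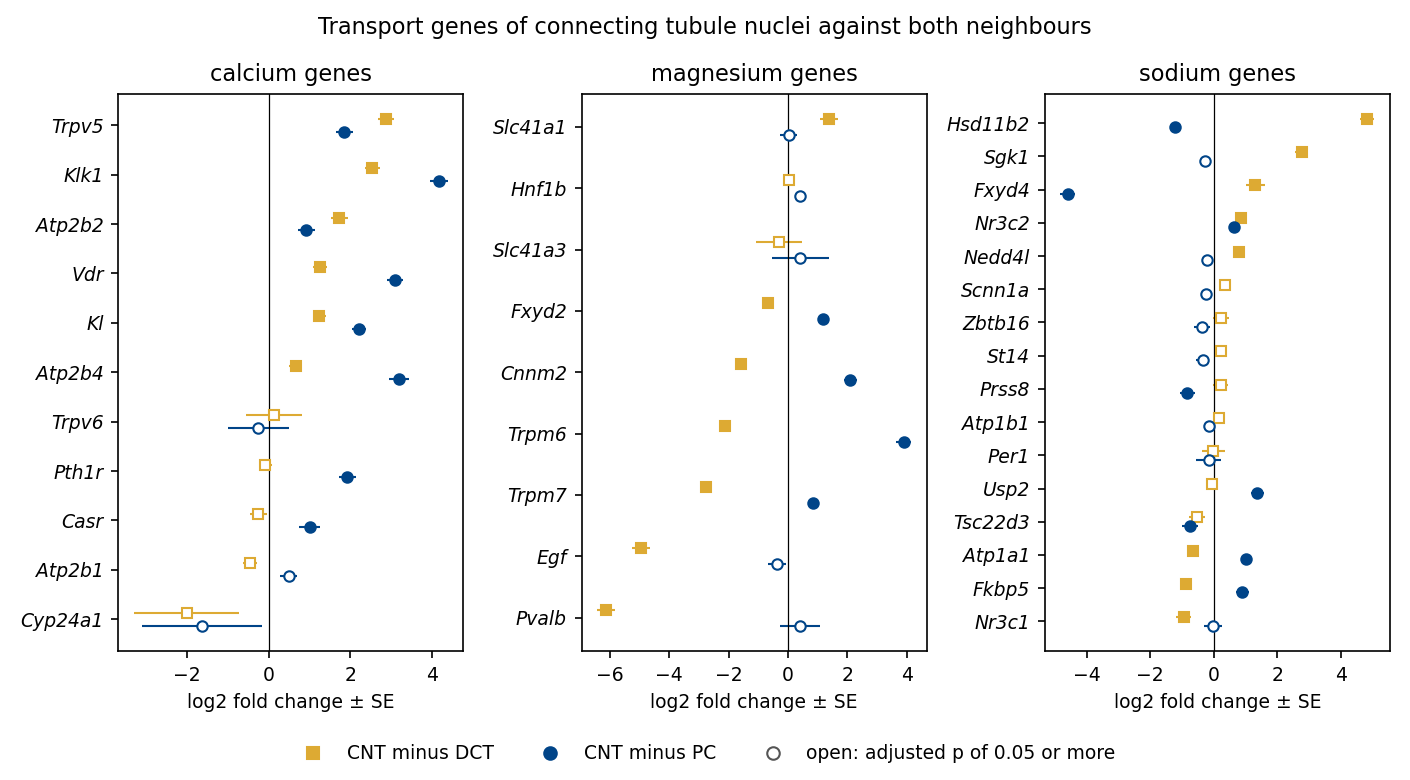
Log2 fold change with its SE of every tested gene of the calcium, magnesium and sodium lists between connecting tubule nuclei (CNT) and distal convoluted nuclei (DCT, squares) or principal nuclei (PC, circles); filled symbols have an adjusted p under 0.05 and open ones do not. The 6 calcium genes higher than in both neighbours lie right of 0 in both contrasts, and Trpm6, Trpm7, Cnnm2 and Fxyd2 lie left of 0 against DCT and right of it against PC.

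Of 15 potassium and chloride genes tested, 2 were higher than in both neighbours. Kcnj10 (0.65 and 0.73) and Kcnq1 (0.70 and 0.42) were these, and Kcne1, the accessory subunit of Kcnq1, was 5.72 (SE 0.33) higher than in distal convoluted nuclei with -0.18 against principal nuclei. The chloride transporter Clcn5 was the only gene of 15 tested that was lower than in both, at -0.66 and -0.77, and it was below both in 3 of 4 mice. The water-channel genes Aqp2 (2.53), Aqp4 (1.68) and Avpr2 (the vasopressin receptor; 4.06) were higher than in distal convoluted nuclei, and each was lower than in principal nuclei (-3.52, -3.56 and -1.43). The part that the gates on Slc12a3 and Aqp3 had in this order was not tested.

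Of 26 transcription factors of the distal nephron, Tbx2 alone was higher than in both neighbours, with 155, 179, 170 and 170 CPM and log2 fold changes of 1.77 (SE 0.19) and 0.50 (SE 0.19). Gata2 (3.95), Pax8 (1.23) and Tfcp2l1 (1.16) were higher than in distal convoluted nuclei and did not pass against principal nuclei, while Emx1 (2.34), Sall3 (4.48) and Esrrg (0.99) were higher than in principal nuclei. Esrrb (-4.09) and Lhx1 (-2.35) were lower than in distal convoluted nuclei. The Wnt receptors Ror1 (0.59 and 2.17) and Ror2 (1.35 and 2.50) were higher than in both and the Wnt effector Tcf7l2 lower (-0.72 and -0.81). Of 22 adhesion genes only Cdh3 and Cadm1 were lower than in both and none was higher, and none of 12 claudin and tight-junction genes or 12 clock genes differed from both in the same direction.

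Tfap2a itself was detected in 21.9% of connecting tubule nuclei, in 19.1% of distal convoluted and in 26.7% of principal nuclei, against 0.349% of proximal tubule nuclei. Its level was 69.7 and 121 CPM in control mice and 85.8 and 84.9 CPM in the KO mice, close to the means of 90.0 ± 5.78 CPM in distal convoluted and 103 ± 40.2 CPM in principal nuclei (SD, n = 4). The log2 fold changes against these classes were -0.01 (SE 0.21) and 0.00017 (SE 0.15), both smaller than their errors. Among nuclei with at least 1500 UMIs, each thinned to 1500, the shares were 13.5%, 12.5% and 13.8%, against 0.151% of proximal tubule nuclei. Its relative Tfap2b was detected in 42.1% of connecting tubule nuclei, with 194, 328, 190 and 276 CPM in control mice 1 and 2 and KO mice 1 and 2, and was 0.89 (SE 0.19) higher than in principal nuclei with -0.26 (SE 0.17) against distal convoluted nuclei. Tfap2d had 1 UMI, in KO mouse 2, and Tfap2c and Tfap2e had 0 UMIs in the 466 nuclei, which allows a share of nuclei with a UMI of up to 0.644%. Kctd1, a repressor that binds AP-2 proteins, was lower than in distal convoluted nuclei (-1.24) and higher than in principal nuclei (1.33), and the AP-2 coactivator Cited4 was lower than in principal nuclei (-4.78), with 2.29 ± 2.93 CPM against 95.7 ± 20.6 CPM (SD, n = 4). Of other genes followed in every comparison, the adhesion molecule Alcam was 4.05 (SE 0.24) higher than in distal convoluted nuclei with 0.07 (SE 0.18) against principal nuclei. Ranbp3l and the ligand Wnt9b were lower than in principal nuclei (-1.88, SE 0.22, and -4.78, SE 0.62) and did not pass against distal convoluted nuclei.

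Connecting tubule nuclei were not alike, and the water channel gene Aqp2, which the rule did not use, ran through them unevenly. Aqp2 was detected in 233 of the 466, against 9.52% of distal convoluted, 96.8% of principal and 9.0% of proximal tubule nuclei, a class that should lack it and that was deeper, with medians of 2895 to 3700.5 UMIs against 2472 to 2766. Thinned to 1500 UMIs, the shares were 40.4% of connecting tubule and 4.65% of proximal tubule nuclei. In the control mice 61 and 29 nuclei had 0 UMIs of Aqp2 and 16 and 20 had at least 3 UMIs, and in the KO mice 93 and 50 had 0 and 34 and 16 had at least 3. The 86 nuclei with at least 3 UMIs were compared with the 233 with 0, summed per mouse, in an edgeR quasi-likelihood fit with the mouse as a term. Of 9491 genes tested without Aqp2 and the genes of the rule, 110 were higher (1.16%) and 97 lower (1.02%) in the Aqp2-positive nuclei at an adjusted p under 0.05, 207 in all (2.18%).

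Aqp2-positive connecting tubule nuclei were higher in genes of the principal cell. Aqp4, the basolateral water channel, rose from 17.6, 11.2, 4.26 and 22.6 CPM in Aqp2-negative nuclei to 71.3, 344, 253 and 121 CPM in control mice 1 and 2 and KO mice 1 and 2, with a log2 fold change of 3.69 (SE 0.46). Fxyd4, a subunit of the sodium pump in the collecting duct (2.87, SE 0.40), the potassium channel subunit Kcne1 (2.54, SE 0.29), the vasopressin receptor Avpr2 (1.92, SE 0.40), Hsd11b2 (1.65, SE 0.18) and Sgk1 (1.39, SE 0.24) were higher too, each in all 4 mice. With only nuclei under 1% mitochondrial UMIs the calls of Sgk1 (0.70, adjusted p = 0.722 from the edgeR fit), Hsd11b2 (1.18, adjusted p = 0.137) and Avpr2 (2.05, adjusted p = 0.0822) were lost. Of the markers of principal cells that could be tested, 3 of 4 were called higher and none lower, with Gata3 the one that was not called, whereas none of 8 intercalated cell markers was called and 7 of them had a negative log2 fold change. The mean levels in Aqp2-positive nuclei were below those in principal nuclei, with Aqp4 at a mean of 197 CPM against 914 CPM and Fxyd4 at 203 CPM against 2155 CPM.

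Genes outside this list led the change as well. Rbfox1, a splicing factor, was 3.25 (SE 0.29) higher, with 303, 971, 220 and 864 CPM against 35.3, 33.5, 34.1 and 90.3 CPM. Mgat4c, a glycosyltransferase, was 3.53 (SE 0.37) higher, and in control mouse 1 it was nearly level, with 35.7 CPM against 29.4 CPM. Grem1, an antagonist of bone morphogenetic proteins, had 4, 4, 6 and 6 UMIs in Aqp2-positive nuclei against 2, 0, 0 and 0. Trpv5 was also higher in the Aqp2-positive nuclei, with 143, 388, 383 and 884 CPM against 118, 290, 170 and 263 CPM (log2 fold change 0.93, SE 0.24, adjusted p = 0.00875 from the edgeR quasi-likelihood fit). This call for Trpv5 was lost with DESeq2 (0.94, adjusted p = 0.776), with only nuclei under 1% mitochondrial UMIs (0.56, adjusted p = 0.832), with mixed nuclei left out (0.77, adjusted p = 0.0671) and with nuclei thinned to 1500 UMIs, where the log2 fold change was 0.20 (adjusted p = 0.934). DESeq2 did not call Mgat4c, Grem1 or Avpr2 either, with adjusted p of 0.579, 0.0828 and 0.259. The thinned nuclei were split at a lower Aqp2 cut than 3 UMIs.

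The genes lower in Aqp2-positive nuclei included magnesium and distal convoluted genes. Trpm6 fell from 635, 468, 750 and 1054 CPM to 232, 224, 188 and 161 CPM, with a log2 fold change of -1.92 (SE 0.23). Fxyd2, the gamma subunit of the sodium pump (-1.59, SE 0.18), and Wnk1 (-1.11, SE 0.17) were lower in all 4 mice, and so were Abca13 (-2.76, SE 0.28), Malrd1 (-3.43, SE 0.45) and the kinase Mertk (-3.02, SE 0.48). Of 7 magnesium genes tested 3 were lower and none higher, and of 9 calcium genes Klk1 and Pth1r were lower and Trpv5 higher. Klk1 was lower in 3 of 4 mice (5936 against 2140, 4405 against 2106 and 1777 against 221 CPM) and higher in KO mouse 1 (3387 against 5547 CPM), and DESeq2 called neither Klk1 nor Pth1r (adjusted p = 0.715 for Pth1r). In KO mouse 1 a single nucleus held 541 of the 2007 Klk1 UMIs of all connecting tubule nuclei. The Aqp2-positive nuclei of this mouse held 680 and the Aqp2-negative 795, and the part of that nucleus was not tested. Of 5 thick ascending limb markers 2 were lower, and of 8 proximal tubule markers none was called and all 8 had a negative log2 fold change; their part in these results was not tested. The genes of the rule, given here without a test, differed in part as well. Slc8a1 had 25539.5 to 40614 CPM in Aqp2-positive and 56420.5 to 61311 CPM in Aqp2-negative nuclei, while Calb1 (3853 to 6713 against 3518 to 5364 CPM) overlapped. Tfap2a (0.39, SE 0.38), Tfap2b (-0.66, SE 0.27), Alcam (0.24, SE 0.27) and Ranbp3l (-0.36, SE 0.39) were not called.

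**Figure D4:**
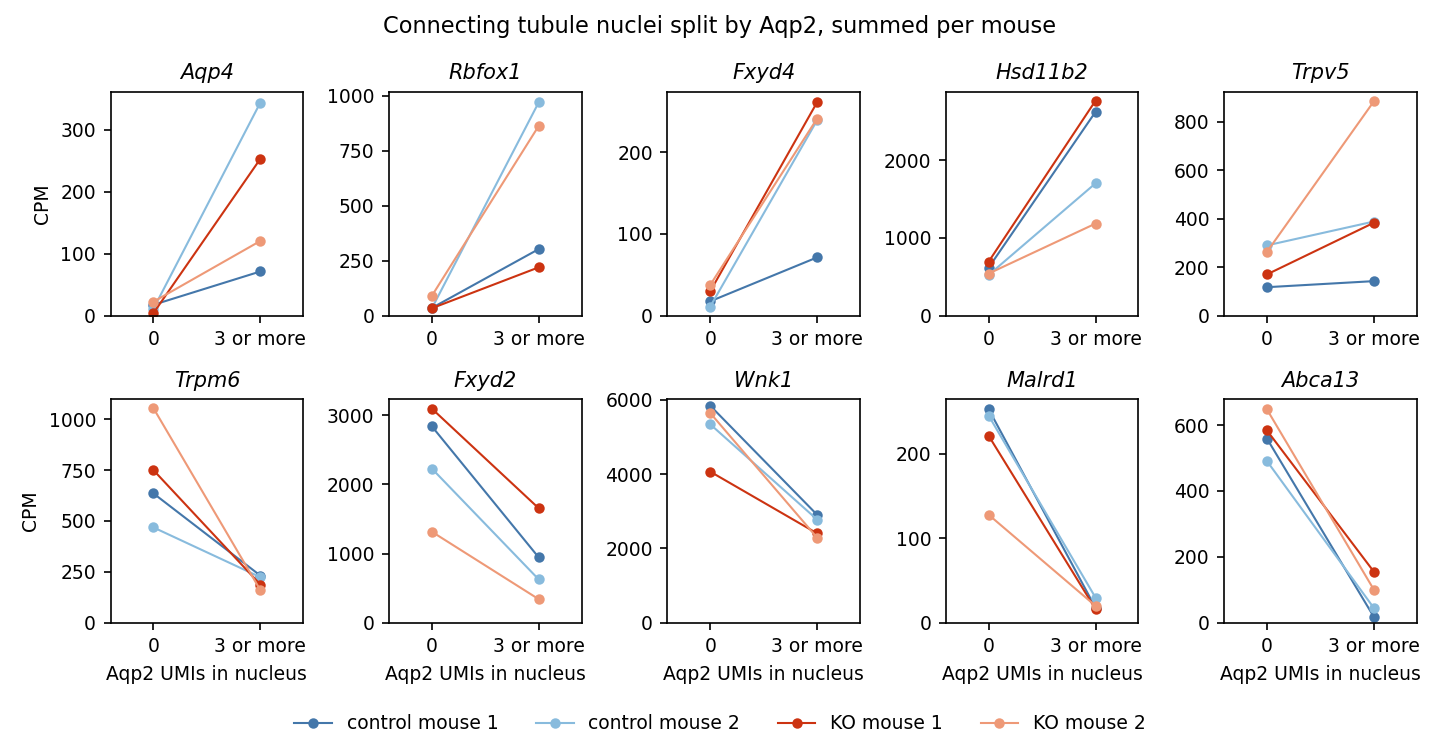
Levels (CPM) of 10 genes in connecting tubule nuclei with 0 Aqp2 UMIs and with 3 or more, summed per mouse; each line joins the values of 1 mouse. The upper row holds genes higher in Aqp2-positive nuclei in all 4 mice and the lower row genes lower in all 4.

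The Aqp2-positive nuclei were the deeper in 3 of 4 mice, with medians of 3216, 2848.5, 3443.5 and 2616 UMIs against 2470, 2914, 2301 and 2392.5. Nuclei with at least 1500 UMIs were also thinned to 1500 and split on the thinned Aqp2. The cut for Aqp2-positive nuclei was then lower than 3 UMIs. In this split 97 genes were called, 27 higher and 70 lower, and 65 of the 207 calls were made again in the same direction. The parts of depth and of the changed cut were not tested. The direction was kept in 206 of the 207. DESeq2 called 33 genes, 32 of them among the 207, and without normalization factors the calls were 160 higher and 71 lower, so that the balance of higher and lower genes depends on the scaling.

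In the comparison of genotypes, Tfap2a had 23 and 25 UMIs in the connecting tubule nuclei of the control mice and 42 and 24 UMIs in those of the KO mice, a log2 fold change of -0.14 (SE 0.40, 95% interval -1.03 to 0.74). The genotypes overlapped. The assay counts the 3′ ends of transcripts and not the floxed exons, so these counts do not check the deletion. Wnt9b had 3.03, 0, 2.04 and 0 CPM, too few UMIs for a test, against 84.0, 89.5, 28.2 and 30.2 CPM in principal nuclei. Alcam had 309, 203, 149 and 265 CPM in control mice 1 and 2 and KO mice 1 and 2 and a log2 fold change of -0.35 (SE 0.39, 95% interval -1.20 to 0.50).

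No gene passed an adjusted p under 0.05 between KO and control connecting tubule nuclei by the edgeR quasi-likelihood fit (Benjamini-Hochberg adjusted) (0 of 10339 genes, 0%), and DESeq2 also called 0. At an unadjusted p under 0.05 edgeR had 101 genes lower (0.977%) and 88 higher (0.851%) in the KO mice, 1.83% in all, and DESeq2 had 24 and 11. Both KO mice lay below both control mice in 13.5% of all genes tested and above them in 14.5%, so that 28.0% did not overlap. Leaving out control mouse 1 gave 18 calls, control mouse 2 gave 4, KO mouse 1 gave 0 and KO mouse 2 gave 5. The intervals were wide, so that a change of 2-fold was within the 95% interval of many genes named below, Trpv5, Klk1 and Alcam among them. In simulated data, with changes planted only in genes with more UMIs than the filter asks, this fit recovered 2% of 2-fold and 39% of 4-fold changes. The 0 calls therefore do not show that no gene changed.

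The 5 genes with the smallest unadjusted p that were lower in KO mice were Sgcz, Slit3, Igfbp3, Npas2 and Erbb4. Npas2, a clock transcription factor, had 19 and 15 UMIs in control mice and 4 and 0 in the KO mice, spread over 15, 12, 4 and 0 nuclei, with a log2 fold change of -3.59 (SE 0.72, unadjusted p = 0.000405, adjusted p = 0.859 from the edgeR quasi-likelihood fit). Erbb4, a receptor of the EGF family, had 448 and 951 CPM against 149 and 280 CPM (log2 fold change -1.74, SE 0.45). Sgcz, a sarcoglycan, had 24 and 34 UMIs against 1 and 2, of which single nuclei held 10 and 21 in the control mice. It was lower in both KO mice in the other classes too, with 27 and 19 against 1 and 0 UMIs in principal nuclei. In distal convoluted nuclei it had 21.0 and 24.6 against 4.12 and 20.7 CPM. Slit3 had 16 and 11 UMIs against 0 and 0, carried by 1 and 2 nuclei. With UMIs pooled over each group and a floor of 3 counts for the KO group, it was 12.9-fold lower. Such a pooled value takes no account of the spread between mice. Igfbp3, an IGF-binding protein, had 9 and 9 UMIs against 0 and 0, and in control mouse 2 a single nucleus held 8 of the 9.

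The 5 leading genes that were higher in KO mice were Nr1d1, Nr1d2, Fam161b, Plcd3 and Per2. Nr1d1 (Rev-erb alpha, a clock repressor) had 0 and 0 UMIs in control mice and 17 and 11 in the KO mice, in 16 and 10 nuclei. Its pooled count was 6.49-fold higher with the same floor set for the control group, with an adjusted p = 0.859 from the edgeR quasi-likelihood fit. Nr1d2, its relative, had 27.3 and 38.6 CPM against 79.7 and 177 CPM (log2 fold change 1.93, SE 0.51), and Per2, a core clock gene, had 12.1 and 24.1 CPM against 40.9 and 159 CPM (2.43, SE 0.73). Plcd3, a phospholipase, had 4 and 0 UMIs against 18 and 19, and Fam161b had 0 and 0 against 8 and 7, 3.48-fold higher when pooled with that floor. In none of these did 1 nucleus hold more than 4 UMIs.

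Clock genes were thus among the leading genes in both directions, and none was called. Of 10 clock genes tested, 2 were lower and 4 higher at an unadjusted p under 0.05, their median log2 fold change being 0.84 (all genes tested, -0.01). Arntl, the partner of Npas2 and Clock, had 103 and 227 CPM in control mice and 75.6 and 10.6 CPM in the KO mice. Dbp, a clock output gene, had 9.09 and 14.5 CPM against 30.6 and 81.4 CPM. Distal convoluted and principal nuclei of the same mice gave the same order of genotypes for some of these genes, with Arntl at 89.1 and 131 against 56.7 and 5.18 CPM and at 57.2 and 55.1 against 26.0 and 10.1 CPM, and Dbp at 11.1 and 4.10 against 34.0 and 33.7 CPM and at 15.3 and 10.3 against 58.5 and 60.5 CPM. Nr1d1 overlapped in distal convoluted nuclei, with 32.2 and 20.5 against 35.0 and 10.4 CPM, and Per1 overlapped in both other classes. Tef overlapped in connecting tubule nuclei and did not in the others, and Clock overlapped in connecting tubule and principal nuclei. The time of day at which kidneys were taken was not tested.

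**Figure D5:**
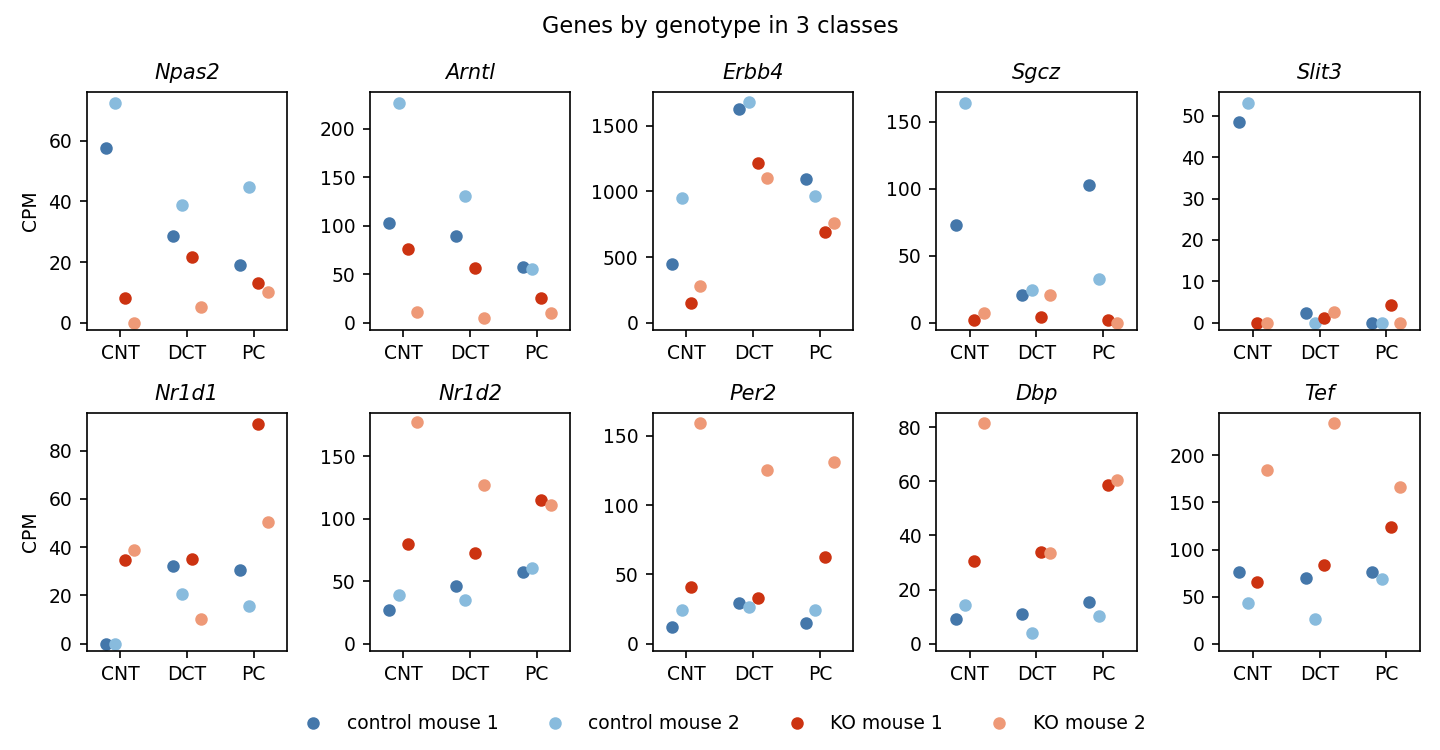
Levels (CPM) of 10 genes in connecting tubule (CNT), distal convoluted (DCT) and principal (PC) nuclei of the 2 control mice (blue) and 2 KO mice (red), each point being 1 mouse. Npas2, Arntl, Erbb4 and Sgcz were lower, and Nr1d2, Per2 and Dbp higher, in both KO mice than in both control mice in all 3 classes. The Slit3 points of the genotypes were apart in CNT alone, where its UMIs came from 3 nuclei.

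No gene of the segment's own transport was called between genotypes. Of 9 calcium genes tested, 0 were called and 0 had an unadjusted p under 0.05, with a median log2 fold change of -0.05. Trpv5 had a log2 fold change of 0.51 (95% interval -0.59 to 1.61) and Klk1 of -0.45 (-1.40 to 0.50), both with overlapping genotypes. Vdr (0.14, -0.57 to 0.85) had 921 and 970 CPM against 1091 and 1030 CPM, with both KO mice above both control mice. Of 16 sodium and aldosterone genes, 0 had an unadjusted p under 0.05 and the median was -0.0015, with Scnn1a at -0.04 (-0.76 to 0.68) and Nr3c2 at -0.13 (-0.93 to 0.66). Of 21 Wnt genes 14 had a negative and 7 a positive log2 fold change, with 1 at an unadjusted p under 0.05, and of 16 adhesion genes 11 had a negative and 5 a positive one. Ranbp3l had 96.9 and 174 CPM in control mice and 34.7 and 84.9 CPM in the KO mice (log2 fold change -1.24, SE 0.49, unadjusted p = 0.0286, adjusted p = 1 from the edgeR quasi-likelihood fit).

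Markers of the thick ascending limb, a segment that connecting tubule nuclei should lack, also parted by genotype. They summed to 1166 and 2163 CPM in control mice and to 856 and 658 CPM in the KO mice. Slc12a1 had 111 and 198 UMIs against 84 and 69, found in 22 and 15 nuclei against 26 and 13. A single nucleus held 53 of the 111 and 44 of the 198 Slc12a1 UMIs in control mice, and 31 of the 84 and 41 of the 69 in the KO mice. How far the parting by genotype rests on such nuclei was not tested. Cldn16, another of the 6, had 0 and 0 UMIs against 2 and 1 and was not tested. The 5 of them that were tested all had a negative log2 fold change, 2 of them at an unadjusted p under 0.05. Markers of the proximal tubule, at 1914 and 323 against 1675 and 1150 CPM, overlapped. UMIs of genes of dividing cells were found only in KO mouse 2, in 4 nuclei with 29 UMIs, 17 of them in a single nucleus. Their part in the genotype results was not tested, although with nuclei that held at least 5 UMIs of another class left out, edgeR's test still called 0 genes.

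Whether KO mice differed from control mice otherwise in connecting tubule than in principal nuclei was tested as the interaction of class and genotype. Of 12277 genes tested, 6 (0.0489%) passed an adjusted p under 0.05 by the edgeR quasi-likelihood fit (Benjamini-Hochberg adjusted), and DESeq2 called 0. Abca13, a lipid transporter, stood at 367 and 290 CPM in the connecting tubule nuclei of the control mice and at 392 and 407 CPM in those of the KO mice, whereas in principal nuclei it had 24 and 21 UMIs against 2 and 0 (difference of the log2 fold changes 4.43, SE 0.77). Clu had 630 and 1096 against 1397 and 662 CPM in connecting tubule nuclei, where the genotypes overlapped, and 134 and 80.9 against 449 and 514 CPM in principal nuclei, where they did not (-1.98, SE 0.43). Ralyl, an RNA-binding protein, was lower in KO connecting tubule nuclei (16 and 25 against 1 and 7 UMIs) and had 39 and 52 against 79 and 56 UMIs in principal nuclei (-3.79, SE 0.60). Egf, Il1rapl1 and Rbfox1 were the other 3. Tfap2a, Tfap2b, Wnt9b, Alcam, Trpv5, Klk1 and Ranbp3l were not among them (adjusted p = 1 for each from the edgeR fit). With called doublets left out 6 genes were called and with nuclei of mixed markers left out 3, all with a negative difference, so that Abca13 (2.68 and 0.60) and Egf (1.67 and 1.47) were no longer among them. With edgeR's filterByExpr 0 were called. Leaving out KO mouse 1 or KO mouse 2 gave 15 calls each.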

How the data were processed

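Kidney slices of 4 male mice, with the cortex trimmed and 1 library per mouse, were profiled by single-nucleus RNA sequencing of 3′ ends. The authors mapped reads to mm10 with Cell Ranger 3.0.2 (named in the submitters' processing notes) and deposited unnormalized UMI counts per gene and barcode, empty droplets included. The study's own clusters were not used here. The deepest 10000 barcodes of a library were kept at more than 500 and fewer than 4000 genes and under 5% mitochondrial UMIs. Libraries held 22179410 to 44964099 UMIs, and the summed connecting tubule nuclei 207151 to 489471 UMIs per mouse. Doublets were scored by simulation (scanpy 1.11.5), called at 0.8% per 1000 nuclei, kept, and left out as an alternative. Members and gene lists were chosen with earlier results of these data known.

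UMI counts were summed per mouse and class, since nuclei are not replicates. Genes with at least 10 UMIs over the sums were tested with edgeR 4.0.16 (R 4.3.3; TMM, quasi-likelihood F-test, Benjamini-Hochberg over all genes tested, threshold 0.05), with the mouse as a term between classes and genotype alone between genotypes. Replicates are separate mice, but edgeR shares its estimate of spread across genes. The SE and p-value of a gene therefore do not measure its own spread between these 4 animals alone, least of all between classes. In the Aqp2 split, Klk1 had log2 ratios (CPM + 10) of -1.47 and -1.06 in control mice and 0.71 and -2.95 in KO mice, with an SE of 0.18. In KO mouse 1 a single nucleus held 541 of the 2007 Klk1 UMIs. The 8 genes of the rule counted toward library sizes and were not tested, and the same holds for Aqp2 in its own split. Levels are CPM, UMIs scaled to a common total, computed from the deposited counts. As 3′ counts, they are not divided by transcript length. The code was tested on simulated data. Changes were planted there only in genes expected to have clearly more than the 10 UMIs of the filter, and all genes shared 1 spread. Recovery for sparser genes was not measured. The genotype fit recovered 2% of 2-fold and 39% of 4-fold changes, and the interaction fit 4.76% and 30.9%. The comparison with both neighbours recovered 33.3% and 83.6%, and the Aqp2 split 26.4% and 76.9%. Genes named were Tfap2a, Tfap2b, Wnt9b, Alcam, Trpv5, Klk1 and Ranbp3l, the calcium, sodium and AP-2 lists, up to 10 called genes per direction with the largest log2 fold change and the same direction in every mouse, up to 4 genes of each other list, and, between genotypes, the 5 per direction with the smallest p. Alternatives were DESeq2 1.42.0, no TMM factors, other filters on low counts, other gates, nuclei thinned to 1500 UMIs, free RNA (barcodes under 100 UMIs) subtracted, doubtful nuclei left out, each mouse left out, and a replicate block. Intervals on shares are exact binomial at 95% and cover counting error only.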

Additional observations from a re-analysis of the deposited data

Results flagged for a closer look

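For 6 genes the change between KO and control mice differed between connecting tubule and principal nuclei by a test of the difference itself, edgeR's quasi-likelihood interaction test with Benjamini-Hochberg adjustment. The difference of the log2 fold changes, connecting tubule minus principal, was -3.79 for Ralyl (adjusted p = 3.08e-06), 4.43 for Abca13 (adjusted p = 6.32e-05), 2.41 for Egf (adjusted p = 0.00266), and -2.52 for Il1rapl1, -1.95 for Rbfox1 and -1.98 for Clu (adjusted p = 0.00967 for each of these by edgeR). Abca13 had 91.6 and 36.2 CPM in control and 4.33 and 0 CPM in KO principal nuclei, and 367 and 290 CPM against 392 and 407 CPM in connecting tubule nuclei. Egf stood at 698 and 320 CPM against 80.2 and 20.2 CPM in principal nuclei and at 90.9 and 386 CPM against 125 and 124 CPM in connecting tubule nuclei. Rbfox1 had 185 and 343 CPM against 89.9 and 230 CPM in connecting tubule nuclei and 343 and 334 CPM against 566 and 1008 CPM in principal nuclei. Il1rapl1 had 48.5 and 111 CPM against 18.4 and 24.8 CPM in connecting tubule nuclei, and 244 and 82.7 CPM against 251 and 227 CPM in principal nuclei. DESeq2 called none of the 6. The difference for Abca13 was 2.68 with called doublets left out and 0.60 with nuclei of mixed markers left out (adjusted p = 1 for both from the edgeR fit). For Egf it was 1.67 (adjusted p = 0.597) and 1.47 (adjusted p = 1) in the same edgeR fits, so that neither gene was called without these nuclei.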

How the results depend on the processing

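The count of genes changed in KO connecting tubule nuclei, 0, stayed 0 with DESeq2, no TMM factors, filterByExpr, other Slc8a1 gates, free RNA subtracted, or doublets, mixed nuclei or nuclei over 1% mitochondrial UMIs left out, and was 13 without a filter on low counts, 2 in nuclei with 0 Aqp2 UMIs, and 0 (without KO mouse 1) to 18 (without control mouse 1) when a mouse was left out. With the replicate number as a block it was 15, 11 lower and 4 higher; the sources used here do not say what the numbers mark. Libraries of mouse 1 held 42138345 and 44964099 UMIs and those of mouse 2 held 24998797 and 22179410, and with 2 pairs the deviations of same-numbered mice correlated at r = 0.32 over 5161 genes, so whether the numbers pair the mice was not settled. Genes higher than in both neighbours, 121, came to 53 with DESeq2, 65 without the mouse term, 62 with control mice alone, and 83 to 100 with a mouse left out. Genes that differed with Aqp2, 207, came to 33 with DESeq2, 51 with mitochondrial UMIs under 1%, 97 after thinning, and 109 (without KO mouse 1) to 218 (without control mouse 1). The 6 genes of the interaction came to 0 with DESeq2 and with filterByExpr, 3 without a filter on low counts, 3 without mixed nuclei, and 4 to 15 with a mouse left out. The KO minus control share of nuclei was 0.298 to 0.881 percentage points with a mouse left out. None of the genotype changes of the named genes below was called, and with a mouse left out they ran from -0.51 to 0.31 for Tfap2a, -0.51 to 0.28 for Tfap2b, -0.81 to 0.067 for Alcam, -0.12 to 1.42 for Trpv5 and -1.07 to 0.00073 for Klk1 on the log2 scale. Tfap2b was at 0.031 in nuclei with 0 Aqp2 UMIs and Klk1 at 0.086 with mitochondrial UMIs under 1%. The causes were not tested.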

Other observations

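A list of immediate early, stress and injury genes was tested between Aqp2-positive and Aqp2-negative connecting tubule nuclei. The 8 with enough UMIs had a positive log2 fold change, with a median of 0.97 against -0.09 over all genes, but with nuclei thinned to 1500 UMIs Spp1 (-0.20) and Hspa1b (-0.12) were negative. Only Hspa5, a chaperone of the endoplasmic reticulum, was called (log2 fold change 0.99, adjusted p = 0.0149 from the edgeR quasi-likelihood fit), and it was higher in 3 of 4 mice, with 100 CPM against 113 CPM in KO mouse 2. This call was lost with DESeq2, after thinning (adjusted p = 0.687), with mitochondrial UMIs under 1% (adjusted p = 0.305) and with mixed nuclei left out (adjusted p = 0.068).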
